A study of Mus musculus with 2 samples.

Results

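The collagen genes are taken here as every gene whose symbol is Col followed by digits, the letter a and digits; 44 of the 25827 genes in the count tables met this rule. They were described in single cells of whole brain from adult mice, sorted with antibodies for mural cells and fibroblasts (CD13 and/or CD140a, without O4), endothelial cells (CD31), astrocytes (ACSA-2), and macrophages and microglia (CD11b with F4/80). One library came from IL34LacZ/+ mice, which carry a LacZ allele of the interleukin-34 gene beside a normal allele, and is called the heterozygous library. The other came from IL34LacZ/LacZ mice, in which both alleles are LacZ, and is called the homozygous library. Both groups carry LacZ, and the labels give neither a wild-type group nor the number of animals pooled. Each genotype is thus a single library, so nothing below is a test between genotypes, and every interval below is a 95% interval for counting error only.

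Collagens are secreted or membrane proteins in which chains wind around each other into a rod-like helix. Fibrillar collagens such as types I, III and V form the fibres of connective tissue. Type IV chains form the sheet-like network of basement membranes, on which endothelial cells sit and in which pericytes are embedded. Type VI chains form beaded filaments between fibres and basement membranes, type VIII chains form hexagonal lattices, FACIT collagens lie on the surface of fibrils, multiplexins (types XV and XVIII) sit in the basement membrane zone, and a few collagens are anchored in the cell membrane. In the brain, fibroblasts are found in the meninges, around larger vessels and in the stroma of the choroid plexus, while endothelial and mural cells share the basement membrane of small vessels.

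The genes of the type IV network lie in head-to-head pairs, and the windows around the start sites of the 2 pairs that the results turn on are printed first, because the genes of each pair were highest in the same class. Each window runs from 250 bases before to 50 bases after a gene's start in RefSeq on GRCm38.p6, on the gene's own strand, 5′ to 3′. In the first pair of sequences the capitals mark the 78 bases that the windows of Col4a1 and Col4a2 share (chr8:11312777-11312854), seen from opposite strands. In the second pair the capitals mark matches, on either strand, to the CCAAT box (CCAAT), to the GC box (its letters being GGGCGG) or to the TATA box (for which TATAAA was searched).
Col4a2, chr8:11312555-11312854, plus strand: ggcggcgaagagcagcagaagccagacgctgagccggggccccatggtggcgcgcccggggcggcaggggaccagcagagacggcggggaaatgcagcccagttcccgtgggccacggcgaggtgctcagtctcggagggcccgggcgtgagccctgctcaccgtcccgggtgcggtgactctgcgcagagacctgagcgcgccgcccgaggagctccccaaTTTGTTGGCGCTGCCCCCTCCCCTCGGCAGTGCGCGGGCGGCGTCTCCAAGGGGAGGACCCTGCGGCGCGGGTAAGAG
Col4a1, chr8:11312777-11313076, minus strand: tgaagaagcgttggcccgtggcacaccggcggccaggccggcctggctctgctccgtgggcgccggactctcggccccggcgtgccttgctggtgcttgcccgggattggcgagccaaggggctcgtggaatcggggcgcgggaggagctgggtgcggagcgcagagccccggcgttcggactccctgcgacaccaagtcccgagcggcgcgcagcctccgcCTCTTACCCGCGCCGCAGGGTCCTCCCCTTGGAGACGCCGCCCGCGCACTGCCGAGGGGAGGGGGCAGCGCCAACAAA
Col4a5, chrX:141475169-141475468, plus strand: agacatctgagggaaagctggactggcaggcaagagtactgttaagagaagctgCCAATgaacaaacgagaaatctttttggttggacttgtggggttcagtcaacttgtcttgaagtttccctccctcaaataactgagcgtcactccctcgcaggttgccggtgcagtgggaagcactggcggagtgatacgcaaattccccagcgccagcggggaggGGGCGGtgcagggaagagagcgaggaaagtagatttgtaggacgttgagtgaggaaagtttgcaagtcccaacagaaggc
Col4a6, chrX:141474027-141474326, minus strand: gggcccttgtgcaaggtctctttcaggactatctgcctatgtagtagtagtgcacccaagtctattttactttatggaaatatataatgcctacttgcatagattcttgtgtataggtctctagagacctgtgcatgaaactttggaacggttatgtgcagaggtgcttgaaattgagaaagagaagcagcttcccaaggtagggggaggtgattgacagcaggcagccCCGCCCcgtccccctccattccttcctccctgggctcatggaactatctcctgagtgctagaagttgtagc
The start sites of Col4a1 and Col4a2 were 21 bp apart, those of Col4a5 and Col4a6 1343 bp apart. GC made up 74% of the Col4a1 window and 73.7% of the Col4a2 window, and 52.7% and 48.3% of the Col4a5 and Col4a6 windows. The stretch shared by Col4a1 and Col4a2 held 1 GC box match and no match to the CCAAT and TATA boxes. RefSeq windows were matched for 35 of the 44 genes (38 windows): the GC box was in 60.5% of these and in 35.7% of all 32851 windows, the CCAAT box in 34.2% against 37.4%, and the TATA box in 13.2% against 13.6%, counting both strands. These matches describe the letters only.

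The heterozygous library held 17168 barcodes and 87394167 UMIs (unique molecular identifiers, 1 per captured transcript), the homozygous 18858 and 95505407. The filters left 8208 and 9619 cells, whose median depth was 3540.5 and 3684 UMIs. These cells held 47.7% of the 423772 collagen UMIs of all barcodes. Cells were clustered without any collagen gene and named from markers that include none, so no collagen gene entered the choice of classes. The 20 classes so named were rebuilt from markers, so each name stands for cells like that type, and the fibroblast-like cells fell into 4 subsets called by a leading gene: the Slc7a11 subset (193 and 350 cells in the heterozygous and homozygous library), the Mfap4 subset (307 and 331 cells), the Krtdap subset (177 and 292 cells) and the Ccn3 subset (751 and 904 cells). No cluster was named astrocyte-like, although the sort included an astrocyte antibody; 17 and 15 cells inside an unnamed cluster described last were led by the astrocyte genes Slc1a2, Slc1a3 and Aqp4. Cells outside the named classes made up 3.61% and 4.17%. The libraries shared 103 barcodes, of which 26 were kept in both, 2 of them in the same class, and 13 touched a fibroblast, mural or endothelial class. Il34 gave 289 UMIs (6.36 CPM) in kept heterozygous and 386 (7.26 CPM) in kept homozygous cells. The sources used here do not say where the LacZ insertion lies relative to the 3′ tags of Il34, so these values do not check the genotype.

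Among the 20 named classes, collagen genes made up the largest part of the UMIs in the Slc7a11 and Mfap4 fibroblast subsets, a smaller part in the other fibroblast subsets, and less again in fenestrated endothelial and mural cells. In the Slc7a11 subset, 0.965% (0.937 to 0.993) and 1.01% (0.989 to 1.03) of all UMIs in the heterozygous and homozygous library came from the 44 genes, in the Mfap4 subset 0.952% (0.939 to 0.964) and 0.947% (0.935 to 0.958), in the Krtdap subset 0.742% and 0.865% and in the Ccn3 subset 0.422% and 0.456%. Fenestrated endothelial cells, the leaky endothelium of the choroid plexus and similar sites, were at 0.347% and 0.338%, mural cells at 0.225% and 0.276%, and arterial, capillary and venous endothelial cells at 0.138% and 0.135%, 0.104% and 0.104% and 0.0702% and 0.0784%. The capillary and venous shares did not stand clear of other classes. Neurons were at 0.121% and 0.108%, choroid plexus epithelial cells at 0.0885% and 0.0891%, erythroid cells at 0.0807% and 0.0841%, and T and NK cells at 0.0615% and 0.0859%. Microglia gave 0.0361% and 0.0396% and border-associated macrophages (BAMs, the macrophages of meninges, perivascular spaces and choroid plexus) 0.0152% and 0.0302%. The order of the fibroblast subsets other than Slc7a11 and Mfap4 was the same in both libraries, and the intervals of Slc7a11 and Mfap4 overlapped in the heterozygous library but not in the homozygous one.

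**Figure D1:**
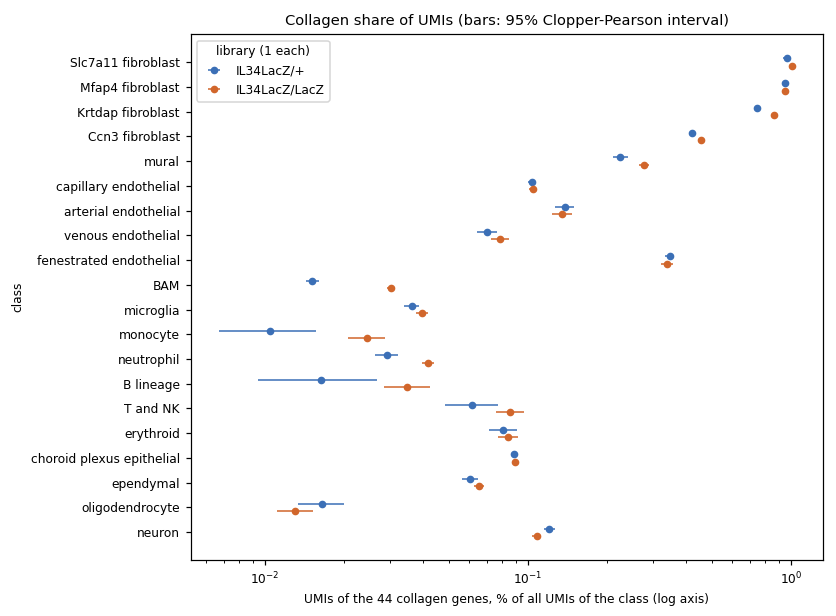
Collagen share of UMIs in each class, as a percent of all UMIs on a log axis, 1 point per library with its 95% Clopper-Pearson interval. The 4 fibroblast subsets lie highest, from 0.422% to 1.01%, and the intervals of the BAM points, 0.0152% and 0.0302%, do not overlap.

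The structural groups that the collagen UMIs came from differed between the classes. Fibrillar chains gave 58.9% and 58.8% of the collagen UMIs in the Mfap4 subset and 46.4% and 47.8% in the Slc7a11 subset. Basement membrane chains gave 19.8% and 18.9% in the Slc7a11 subset but only 2.13% and 1.89%, 1.64% and 1.38% and 2.4% and 2.41% in the Mfap4, Krtdap and Ccn3 subsets. The reverse held for the beaded filament chains, at 5.21% and 5.01% in the Slc7a11 subset and 27.6% and 27.5% in the Ccn3 subset. Multiplexins gave 14.7% and 13.8% in the Slc7a11 subset and at most 0.464% in the other fibroblast subsets. In endothelial cells the basement membrane chains dominated, with 84.5% and 80.1% in capillary and 73.2% and 68.5% in fenestrated cells, and mural cells combined 58% and 56.8% basement membrane with 27.5% and 31% fibrillar UMIs.

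**Figure D2:**
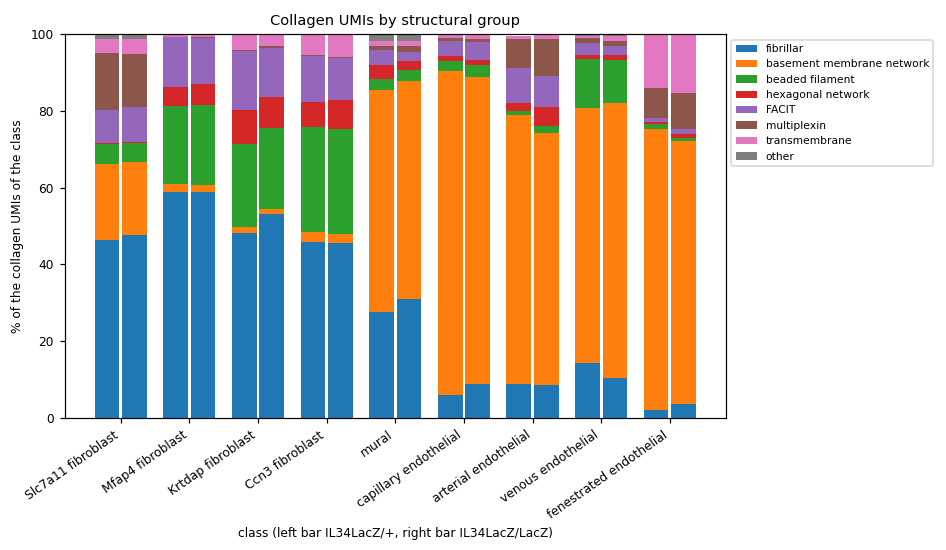
Makeup of the collagen UMIs by structural group in the 9 fibroblast, mural and endothelial classes, as a percent of the collagen UMIs of the class, with 1 bar per library. The Slc7a11 subset is set apart from the other fibroblast bars by its basement membrane (19.8% and 18.9%) and multiplexin (14.7% and 13.8%) parts.

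Over the whole family, 39 of the 44 genes had at least 100 UMIs in kept cells. Of these 39, 23 were highest in a fibroblast subset (9 in Slc7a11, 7 in Mfap4, 7 in Krtdap and none in Ccn3), 5 in neurons, 4 in an endothelial class, 2 in mural cells, 2 in choroid plexus epithelial cells and 1 each in microglia, ependymal cells and oligodendrocytes. The other 5, Col24a1, Col9a1, Col28a1, Col6a4 and Col10a1, had 89, 75, 26, 21 and 14 UMIs. Some of the 39 genes led narrowly. The Krtdap mean was 1.01 times the next class for Col12a1, 1.02 for Col5a2, 1.03 for Col3a1, 1.04 for Col23a1 and 1.09 for Col25a1. The Slc7a11 mean was 1.02 times the next class for Col5a3 and 1.08 for Col7a1, and the Mfap4 mean 1.14 times for Col14a1. For neurons the lead was 1.09 for Col5a1 and 1.14 for Col11a1. At a Leiden resolution of 2 Col25a1 was highest in the Ccn3 subset and Col5a3 in mural cells. With at least 2000 UMIs per cell Col7a1 was highest in neurons, and with doublets kept Col11a1 was highest in the Mfap4 subset. The share of all genes that are highest in a fibroblast subset is not given. UMIs are counted from 3′ ends and are not scaled by transcript length, so levels below, given as CPM (the gene's UMIs over all UMIs of the class, times 1000000), are compared between classes for a gene rather than between genes. Values are always given in the order heterozygous and then homozygous library. Fewer cells making a transcript and fewer transcripts per cell are not told apart by a CPM.

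**Figure D3:**
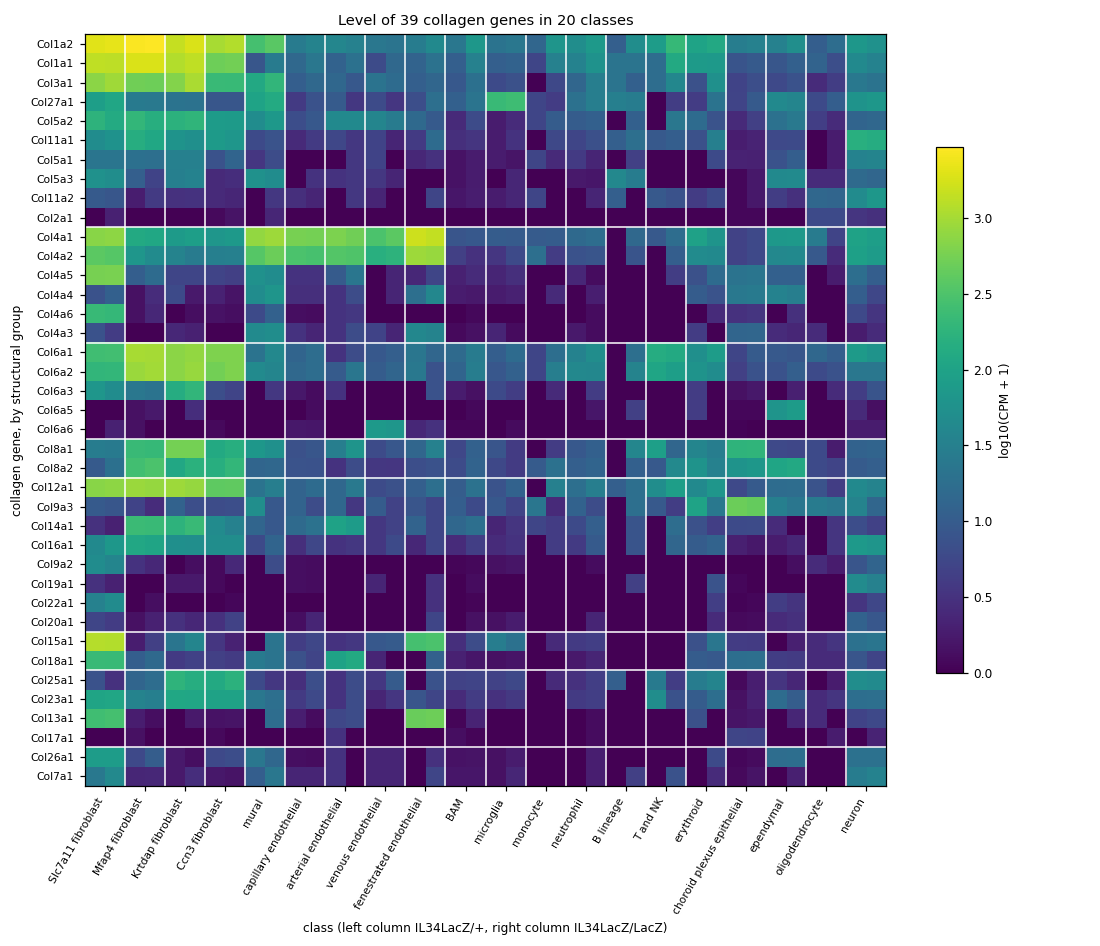
Level of the 39 collagen genes with at least 100 UMIs, as log10(CPM + 1), in 20 classes with 1 column per library, genes grouped by structure. Blocks shared by several genes are seen in the fibroblast columns at left, while Col4a1 and Col4a2 run through mural and endothelial columns. Col6a5 stands alone in ependymal cells. Col9a3 is highest in choroid plexus epithelial cells (mean 468 CPM), followed by erythroid cells (62.8 CPM). Col27a1 is highest in microglia (mean 232 CPM), followed by mural cells (117 CPM) and the Slc7a11 subset (99.6 CPM).

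Among the fibrillar genes, Col1a1 and Col1a2 (chr11:94936224-94953042 and chr6:4504814-4541544, GRCm38), which encode the chains of type I collagen, were highest in the Mfap4 subset. Col1a2 measured 2819.7 CPM (95% interval 2751 to 2889.7) in the heterozygous and 2916 CPM (2853 to 2981) in the homozygous library there. It measured 2009.7 and 2168 CPM in the Slc7a11 subset, 1443 and 1837 CPM in the Krtdap subset and 1041 and 1161 CPM in the Ccn3 subset, so that no 2 neighbouring subsets of this order had overlapping intervals. A Col1a2 UMI was seen in 99.3% of the heterozygous and in every homozygous cell of the Mfap4 subset, against 5.04% and 7.04% of microglia, a type not known to make it, at medians of 6766 and 7396 UMIs and 2692.5 and 3059 UMIs. With every cell thinned to 1000 UMIs these shares were 82.7% and 88.5% and 1.46% and 2.6%. Capillary endothelial cells held Col1a2 at 26.9 and 34 CPM, near the 19.9 and 22.5 CPM of microglia, and 2.69% and 3.19% of the thinned cells had a UMI. So close to the level in microglia, the capillary values are not read as expression. Microglia are a low floor, as other classes held Col1a2 as a larger part of their UMIs. Erythroid cells held 33 and 74 Col1a2 UMIs among 323263 and 595661, and neutrophils 69 and 229 among 1395191 and 3188051. The source of these UMIs was not tested.

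Mural cells held one type I chain almost without the other. Col1a2 measured 277 CPM (95% interval 228 to 334) in the heterozygous and 375 CPM (333 to 422) in the homozygous library in them, with 46.9% and 46.9% of cells holding a UMI, while Col1a1 gave 3 and 20 UMIs in all. With at least 2000 UMIs per cell Col1a2 was at 134 and 289 CPM in mural cells. The ratio of Col1a1 to Col1a2 UMIs was 0.027 (0.00549 to 0.0811) and 0.0719 (0.0433 to 0.113) in mural cells. In the fibroblast subsets it was 0.667 (0.602 to 0.739) and 0.608 (0.566 to 0.653) for Slc7a11, 0.662 and 0.629 for Mfap4, 0.796 and 0.748 for Krtdap and 0.484 and 0.458 for Ccn3. BAMs and microglia, where the type I UMIs are few, had ratios of 0.453 and 0.486 and 0.511 and 0.50, near the lowest fibroblast ratios. The ratio in mural cells lay below all of these in both libraries, with no overlap of the intervals.

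A finer clustering of the mural cells gave pericyte-like cells (101 and 223 cells), which wrap capillaries, and smooth-muscle-like cells (35 and 50 cells), which ring arteries and arterioles. The rest of the class fell into unnamed subclusters, so the mural values are those of a mixed class. Endothelial genes such as Cldn5 led 1 of these (15 and 22 cells), and macrophage genes such as Csf1r another (6 and 15 cells). A further one, with 0 and 6 cells, was led by genes that include Slc7a11, Ptgds and Pdgfra. The Col1a1 to Col1a2 ratio was low in both named parts: 0.0147 (0.000367 to 0.0847) and 0.0382 (0.0138 to 0.0851) in pericytes and 0.050 (0.00121 to 0.313) and 0.0526 (0.00615 to 0.204) in smooth muscle cells. The smooth muscle ratios rested on 1 and 2 UMIs of Col1a1 and 20 and 38 of Col1a2. In the heterozygous library their interval overlapped that of microglia (0.299 to 0.852). Col1a2 itself measured 403 and 359 CPM in pericytes and 293 and 376 CPM in smooth muscle cells. Col3a1, the chain of type III collagen, measured 142 and 158 CPM in pericytes and 29.3 and 29.7 CPM in smooth muscle cells (2 and 3 UMIs), with intervals that overlapped in the heterozygous but not in the homozygous library. Choroid plexus epithelial and ependymal cells also had low Col1a1 to Col1a2 ratios, of 0.248 and 0.266 and 0.231 and 0.205, at Col1a2 levels of 28.1 and 31.9 CPM and 31.9 and 50.9 CPM. Whether those levels are free RNA was not tested.

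**Figure D4:**
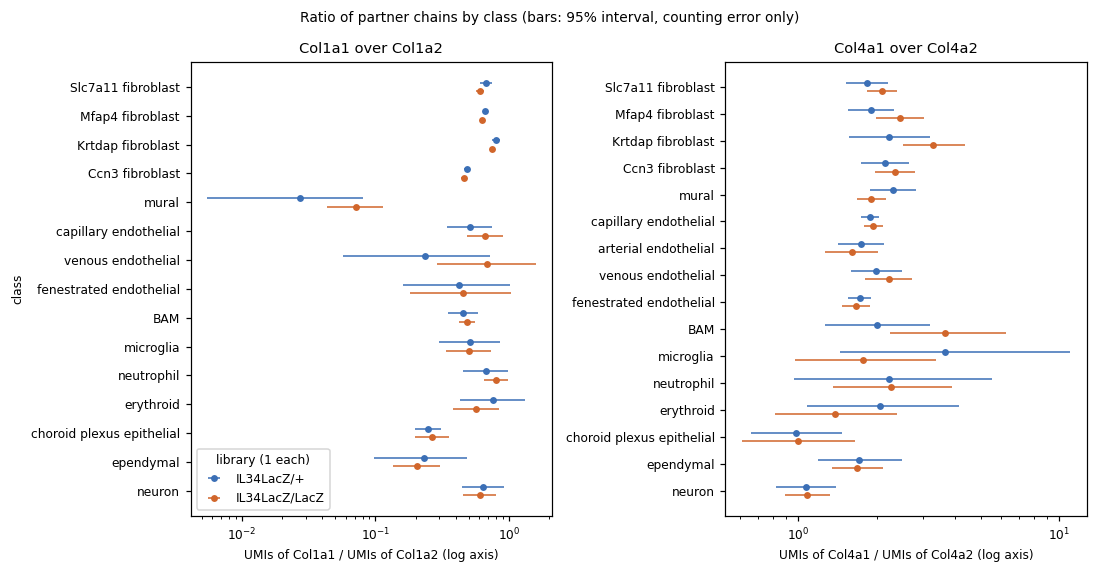
UMIs of Col1a1 over Col1a2 (left) and of Col4a1 over Col4a2 (right) by class on log axes, 1 point per library with its 95% interval. At left the mural points, 0.0270 and 0.0719, stand below all others, while at right the fibroblast, mural and endothelial points lie between 1.60 and 3.29.

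Col3a1 was highest in the Krtdap subset, at 667 and 1060.5 CPM, and in the Slc7a11 subset, at 730.2 and 949 CPM. The subsets changed places between the libraries, so neither led in both. It was lower in the Mfap4 subset, at 519.7 and 508 CPM, and the Ccn3 subset, at 220.1 and 216 CPM. Relative to Col1a2, Col3a1 was at 0.462 (0.427 to 0.50) and 0.577 (0.551 to 0.604) in the Krtdap subset and 0.184 (0.173 to 0.196) and 0.174 (0.165 to 0.184) in the Mfap4 subset. Col5a2, a chain of the type V collagen that nucleates type I fibrils, measured 197 and 149 CPM in the Mfap4, 170.0 and 183 CPM in the Krtdap, 172 and 132 CPM in the Slc7a11 and 79.9 and 77.2 CPM in the Ccn3 subset. Col11a1, its relative of cartilage and eye, measured 145 and 114 CPM in the Mfap4 subset and reached 155 and 141 CPM in neurons. Neurons were also the highest class for Col11a2 (45.4 and 68.2 CPM), and Col24a1 measured 30.8 and 13.1 CPM in them. Col5a1 and Col5a3 stayed low, with highest class means of 34.4 CPM in neurons and 51.9 CPM in the Slc7a11 subset. Col2a1, the main collagen of cartilage, had 131 UMIs in all kept cells and no named class above a mean of 4.96 CPM.

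Col27a1 was the fibrillar gene of microglia, the resident macrophages of the brain. It measured 219 CPM (95% interval 200.4 to 239) in the heterozygous and 245 CPM (229 to 261) in the homozygous library, and 43.2% and 48.8% of microglia held a UMI (20.4% and 20.4% after thinning). BAMs, at higher depth, measured 10.5 and 20.4 CPM, with a UMI in 3.52% and 6.14% of cells. Mural cells measured 102 and 131 CPM and the Slc7a11 subset 87.3 and 112 CPM. The microglial value differed between the libraries by a ratio of 1.12 (95% interval 1.0 to 1.25). The other collagen genes with at least 100 UMIs in microglia were Col15a1, at 28.7 and 18.7 CPM, and Col1a2, given above.

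Of the basement membrane genes, Col4a1 and Col4a2 (chr8:11198423-11312826 and chr8:11312805-11449287), whose chains assemble together, were highest in fenestrated endothelial cells. Col4a1 measured 1568 CPM (95% interval 1476 to 1664) in the heterozygous and 1401 CPM (1295 to 1513) in the homozygous library, and Col4a2 912 CPM (95% interval 842 to 986) in the heterozygous and 841 CPM (759.9 to 929) in the homozygous library. Next came mural cells with 804 and 918 CPM of Col4a1 and the Slc7a11 subset with 715 and 742 CPM. Arterial, capillary and venous endothelial cells followed at 605 and 523 CPM, 569 and 549 CPM and 308 and 385 CPM, where arterial and capillary intervals overlapped. The other fibroblast subsets were far lower, the Mfap4 subset at 126 and 114 CPM. Microglia had 22 and 32 UMIs of Col4a1, or 9.3 and 8.8 CPM. The ratio of Col4a1 to Col4a2 UMIs was 1.72 (1.56 to 1.9) and 1.66 (1.47 to 1.89) in fenestrated, 1.89 (1.74 to 2.05) and 1.94 (1.79 to 2.11) in capillary and 2.3 (1.88 to 2.83) and 1.9 (1.67 to 2.17) in mural cells, and 1.84 (1.53 to 2.21) and 2.1 (1.84 to 2.4) in the Slc7a11 subset. The Krtdap subset had 2.23 (1.57 to 3.2) and 3.29 (2.52 to 4.35), and choroid plexus epithelial cells and neurons lay lower, at 0.981 (0.656 to 1.47) and 1 (0.608 to 1.65) and 1.07 (0.822 to 1.39) and 1.08 (0.886 to 1.32). Across the 20 classes, which share libraries and free RNA, the Pearson correlation of log2(CPM + 1) was 0.963 and 0.988 for Col4a1 and Col4a2, whose printed windows overlap. It was 0.967 and 0.951 for Col6a1 and Col6a2, 0.901 and 0.951 for Col1a1 and Col1a2, and 0.874 and 0.924 for Col4a5 and Col4a6, pairs that share no printed window. Lower values were 0.727 and 0.844 for Col4a3 and Col4a4, the remaining type IV pair, for which no windows are printed. For Col8a1 and Col8a2 they were 0.691 and 0.632, and for Col15a1 and Col18a1 0.297 and 0.549.

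Col4a5 and Col4a6 (chrX:141475385-141689234 and chrX:141165403-141474076), chains of a second kind of type IV network, were features of the Slc7a11 subset. Col4a5 measured 575 CPM (95% interval 508 to 648) in the heterozygous and 593 CPM (545 to 644) in the homozygous library, with 65.8% and 72% of cells holding a UMI. Its next class, mural cells, had a mean of 51.1 CPM over the libraries, 11.4-fold below. Col4a6 measured 215 and 199 CPM there and 4.99 and 10.8 CPM in mural cells. The ratio of Col4a5 to Col4a6 UMIs was 2.67 (2.12 to 3.39) and 2.97 (2.52 to 3.53) in the Slc7a11 subset and 9.21 (6.26 to 14) and 8.72 (5.34 to 15.1) in choroid plexus epithelial cells, where Col4a5 measured 19.6 and 21.5 CPM, with no overlap of the intervals. Between the same classes the ratio of Col4a1 to Col4a2, given above, lay in the other direction, lower in choroid plexus epithelial cells. Col4a3 and Col4a4, the remaining pair, were low everywhere. Their highest class was mural, with 44.9 and 48.6 CPM and 47.4 and 63.5 CPM. Fenestrated endothelial cells held Col4a3 at 38.9 and 34.4 CPM and Col4a4 at 17.3 and 38.7 CPM, and in ependymal cells Col4a4 (33.5 and 29 CPM) was seen almost without Col4a3 (2 and 4 UMIs).

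The beaded filament genes Col6a1 and Col6a2 were widespread in the Mfap4, Krtdap and Ccn3 subsets and lower in the Slc7a11 subset. Col6a1 measured 1031 CPM (95% interval 989.6 to 1074) in the heterozygous and 991 CPM (954 to 1029) in the homozygous library in the Mfap4 subset. The Krtdap subset followed at 730.2 and 792 CPM, the Ccn3 subset at 628 and 628 CPM and the Slc7a11 subset at 249 and 263 CPM, and the order was the same for Col6a2, at 868 and 959 CPM in the Mfap4 and 187 and 194 CPM in the Slc7a11 subset. Col6a3, the large chain that joins them in type VI collagen, was highest in the Krtdap subset at 139 and 193 CPM and had a mean of 56.7 CPM in the next class, the Slc7a11 subset. Its relatives Col6a5 and Col6a6 were each far higher in 1 class than in the next. Col6a5 measured 62.1 and 78.6 CPM in ependymal cells, which line the ventricles, with a mean of 1.74 CPM in the next class. Col6a6 measured 72.1 and 64.7 CPM in venous endothelial cells, where 17.5% and 15% of cells held a UMI, and a mean of 1.8 CPM in fenestrated ones. At a mitochondrial limit of 5% Col6a5 in ependymal cells was at 105 and 42.8 CPM and Col6a6 in venous cells at 46.4 and 99.1 CPM, which turned the order of the libraries for both. In neurons the Col6a1 to Col6a2 ratio was 3.36 (2.18 to 5.32) and 2.61 (1.9 to 3.61), against 1.19 (1.12 to 1.26) and 1.03 (0.98 to 1.09) in the Mfap4 subset.

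Col8a1 and Col8a2, the chains of the hexagonal network collagen known from the corneal and vascular basement membrane zone, were used in different proportions by different classes. Col8a1 was highest in the Krtdap subset, at 552 CPM (95% interval 513 to 592) in the heterozygous and 544 CPM (516 to 572) in the homozygous library, and in the Mfap4 subset it measured 221 and 211 CPM. Col8a2 instead was highest in the Mfap4 subset, at 259 and 303 CPM, against 118 and 160.2 CPM in the Krtdap subset. The Col8a1 to Col8a2 ratio was 4.68 (3.95 to 5.57) and 3.39 (3.05 to 3.78) in the Krtdap, 0.853 (0.756 to 0.963) and 0.697 (0.626 to 0.775) in the Mfap4 and 0.858 (0.764 to 0.963) and 0.766 (0.701 to 0.837) in the Ccn3 subset. Both genes were also measured in epithelium. Choroid plexus epithelial cells, which make the cerebrospinal fluid, held Col8a1 at 178 and 183 CPM and Col8a2 at 60.01 and 66.9 CPM. Ependymal cells held Col8a2 at 107 and 122 CPM with 6 and 13 UMIs of Col8a1, a ratio of 0.0458 (0.0165 to 0.102) and 0.0358 (0.0189 to 0.062). The choroid plexus ratio, 2.96 (2.74 to 3.21) and 2.74 (2.47 to 3.05), lay inside the fibroblast range, and the ependymal ratio below it. Col10a1 had 14 UMIs in all.

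Of the FACIT genes, Col12a1 was measured in all 4 fibroblast subsets. It measured 892 and 828 CPM in the Krtdap, 885 and 824 CPM in the Mfap4, 698 and 754 CPM in the Slc7a11 and 400.2 and 409 CPM in the Ccn3 subset, and the intervals of the first pair overlapped. Col14a1 separated the subsets: it measured 230.3 and 219 CPM in the Mfap4 and 172 and 222 CPM in the Krtdap subset, and 2.13 and 1.06 CPM in the Slc7a11 subset (1 and 1 UMIs). Arterial endothelial cells also held Col14a1, at 96.7 and 78.2 CPM. That cluster held mural markers at a summed 4125 and 5654 CPM (12 of 12 seen) and fibroblast markers at 3817 and 4007 CPM (11 of 12), against 466 and 437 CPM and 509 and 601 CPM in capillary cells, and their part in the value was not tested. Arterial Col14a1 was lower with at least 2000 UMIs per cell, at 58.3 and 56.6 CPM, and at a mitochondrial limit of 5%, at 51.1 and 56.2 CPM. Col9a3 was a gene of the choroid plexus epithelium: it measured 489 CPM (95% interval 478 to 501) in the heterozygous and 447 CPM (432 to 463) in the homozygous library, with a UMI in 91.9% and 87.6% of cells. Col9a3 was also seen at 9.81 and 4.91 CPM in BAMs and with a mean of 62.8 CPM in erythroid cells, classes in which the summed choroid plexus markers measured 5453 and 2436 CPM and 71202 and 38745 CPM. Col9a2 and Col22a1 were highest in the Slc7a11 subset, at 46.8 and 36.9 CPM and 31.9 and 46.4 CPM, and Col19a1 and Col20a1 in neurons, at 46.2 and 32.2 CPM and 11.3 and 7.75 CPM. Col16a1 measured 117 and 106 CPM in the Mfap4 subset and 71.3 and 63.3 CPM in neurons.

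The multiplexin Col15a1 (chr4:47208161-47313167) set the Slc7a11 subset apart from the other fibroblasts. It measured 1199 CPM (95% interval 1102 to 1302) in the heterozygous and 1174 CPM (1106 to 1245) in the homozygous library, with a UMI in 78.8% and 80.3% of cells. The other subsets measured 0.882 and 3.58 CPM (Mfap4), 21.4 and 36.5 CPM (Krtdap) and 2.55 and 1.17 CPM (Ccn3). Fenestrated endothelial cells were the next class, at 275 and 308 CPM, while capillary endothelial cells measured 3.24 and 4.49 CPM. Col18a1, the other multiplexin and the source of endostatin, measured 219 and 214 CPM in the Slc7a11 subset. Unlike Col15a1 it gave 0 and 5 UMIs in fenestrated cells (at most 5.32 CPM by the interval of the heterozygous library) and was highest among endothelial classes in arterial cells, at 98.9 and 127 CPM, where Col15a1 gave 1 and 1 UMIs. The arterial value of Col18a1 moved with the processing. It was 39.2 and 45.3 CPM with at least 2000 UMIs per cell, 42.8 and 40.9 CPM at a mitochondrial limit of 5%, 49.7 and 53.8 CPM at a Leiden resolution of 2 and 48.8 and 53.3 CPM with collagen genes kept in the clustering, and at a mitochondrial limit of 20% the class was not formed. The part of the mural and fibroblast markers of this cluster, given above, was not tested for Col18a1 either. In the Slc7a11 subset Col15a1 was at 768 and 878 CPM with at least 500 UMIs per cell. The 2 multiplexins thus shared the Slc7a11 subset and were divided between the endothelial classes.

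Among membrane-anchored collagens, Col13a1 followed Col15a1: it measured 477 CPM (95% interval 427 to 531) in the heterozygous and 501 CPM (439 to 570.0) in the homozygous library in fenestrated endothelial cells and 255 and 275 CPM in the Slc7a11 subset, and 0.972 and 0.321 CPM in capillary cells. Col25a1, known for binding amyloid, measured 177 and 142 CPM in the Krtdap and 125 and 168 CPM in the Ccn3 subset, against 6.39 and 2.11 CPM in the Slc7a11 subset. Col23a1 was near even across 3 subsets, at 114 and 110.2 CPM in Krtdap, 104 and 111 CPM in Slc7a11 and 98.2 and 98.8 CPM in Ccn3, and lower in Mfap4, at 34.8 and 30.1 CPM. Col17a1, a hemidesmosome component of epithelia, had 100 UMIs in all, and its highest class mean was 4.14 CPM in choroid plexus epithelial cells. Col26a1 measured 80.9 and 82.3 CPM and Col7a1, which forms the anchoring fibrils of skin, 23.4 and 42.2 CPM in the Slc7a11 subset. Col28a1 gave 26 UMIs, with its highest mean, 9.15 CPM, in mural cells.

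The Slc7a11 subset thus differed from the other fibroblast subsets in named genes on both sides. Col15a1, Col4a5, Col4a6, Col13a1, Col18a1, Col4a1 and Col4a2 were higher in it, and Col6a1, Col6a2, Col8a1, Col8a2 and Col14a1 lower, in both libraries with no overlap of intervals against any of the other 3 subsets. The share of all genes that differ in this way between these clusters is not given, so the list describes these genes only. Depth differed between these cells, with medians of 2049 and 2243.5 UMIs in the Slc7a11, 6766 and 7396 UMIs in the Mfap4, 7583 and 8631 UMIs in the Krtdap and 4801 and 5470 UMIs in the Ccn3 subset. Marker genes of mural cells summed to 4517 and 5273 CPM in the Slc7a11 subset, to 311 and 501 CPM in the Mfap4 subset and to 25016 and 30117 CPM in mural cells (12 of 12 seen in each), and endothelial markers to 566 and 393 CPM and 247 and 203 CPM in the 2 fibroblast subsets. Their part in the basement membrane levels of the Slc7a11 subset was not tested. In mural cells, a class with unnamed subclusters, Col4a5, Col4a6 and Col15a1 measured 54.9 and 47.3 CPM, 4.99 and 10.8 CPM and 0 and 20.3 CPM. Col15a1 gave 0 and 3 UMIs in the pericytes and 0 and 1 in the smooth muscle cells of that class. Col4a6 gave 2 and 4 UMIs and 0 and 2 UMIs in them. At a Leiden resolution of 0.5 the Slc7a11 and Mfap4 subsets were not formed, and with mitochondrial reads limited to 5% the Mfap4, Krtdap and Ccn3 subsets were not; 22 and 23 of the 39 genes then kept their highest class.

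Between the 2 libraries, no collagen gene compared in a fibroblast subset, mural cells or an endothelial class met the rule for a difference. A gene was compared in a class where both libraries together held 100 or more of its UMIs, and was counted as differing where its CPM was 2-fold or more higher or lower in the homozygous library and the interval of that ratio left out 1. None of the genes counted in the Slc7a11, Mfap4, Krtdap and Ccn3 subsets (17, 17, 20 and 16 genes with enough UMIs), in mural cells (5) or in capillary, arterial, venous and fenestrated endothelial cells (5, 2, 3 and 4) met this rule. Of all genes, 0.321%, 0.280%, 0.344% and 0.294% met it in the fibroblast subsets, 1.91% in mural and 0.147%, 1.23%, 0.359% and 0.852% in the endothelial classes, so counts of 0 were near the background. Median ratios of the collagen genes were 1.04, 0.931, 1.08 and 1.03 in the fibroblast subsets, beside 1.03, 0.999, 0.997 and 1.01 for all genes. In mural cells the medians were 1.35 and 1.06, and in capillary endothelial cells 1.26 and 1.01.

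Over the 4 fibroblast subsets together, the log2 ratio of the collagen share was 0.11, and it ran from -0.02 to 0.15 over 12 other settings. Among the subsets, the Krtdap subset had the highest ratio of the share. Of its 20 collagen genes compared, 9 had intervals of the ratio above 1 and 2 below 1, where 7.47% and 8.04% of all genes had. Intervals are narrower for genes with more UMIs, and all genes were not matched to the collagen genes in UMIs. Such shares are therefore not like for like, here or in the classes below. The share there was 0.742% and 0.865%, a ratio of 1.17 (95% interval 1.14 to 1.19). Col3a1 measured 667 CPM (95% interval 625 to 711) in the heterozygous and 1060.5 CPM (1022 to 1099.8) in the homozygous library, a ratio of 1.59 (95% interval 1.48 to 1.71), and no cell held more than 3.7% of its UMIs. Col1a2 had a ratio of 1.27 (95% interval 1.21 to 1.34) and Col1a1 of 1.2 (95% interval 1.13 to 1.27) in the same subset. For Col3a1 the ratio in the Slc7a11 subset was 1.3 (95% interval 1.15 to 1.48), but in the Mfap4 and Ccn3 subsets it was 0.978 (95% interval 0.904 to 1.06) and 0.982 (95% interval 0.903 to 1.07). Col15a1 in the Slc7a11 subset had a ratio of 0.979 (95% interval 0.884 to 1.09) and Col4a5 of 1.03 (95% interval 0.891 to 1.2). In the other direction, Col5a2 in the Mfap4 subset measured 197 and 149 CPM, a ratio of 0.756 (95% interval 0.66 to 0.866). With 1 library each, the spread between animals of a genotype is unknown, so none of these can be set against it.

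In mural cells the collagen share was 0.225% (0.21 to 0.24) and 0.276% (0.264 to 0.288), a ratio of 1.23 (95% interval 1.14 to 1.33), and 3 of the 5 genes with enough UMIs had intervals of the ratio above 1, where 14.7% of all genes had. The largest ratio was that of Col3a1, 1.56 on 49 and 141 UMIs. Col4a2 measured 349 and 482 CPM with a ratio of 1.38 (95% interval 1.13 to 1.69), and Col1a2 had one of 1.35 (95% interval 1.08 to 1.7). Within the named parts of the class the ratios of the share were nearer to 1, at 1.08 (95% interval 0.972 to 1.21) in pericytes and 1.04 (95% interval 0.837 to 1.29) in smooth muscle cells. The unnamed subclusters given above add to the class value. In pericytes Col1a2 had a ratio of 0.889 (95% interval 0.665 to 1.2) and Col3a1 one of 1.11 (0.687 to 1.84). Col4a1 was at 1.05 (0.877 to 1.27) and Col27a1 at 1.02 (0.651 to 1.63). Col4a2 did not move nearer to 1 there, at 344 and 535 CPM and a ratio of 1.55 (1.16 to 2.11). The mural cells of the heterozygous library also held more choroid plexus epithelial markers, a summed 32133 and 8718 CPM (8 of 8 seen), whose part in the shares was not tested. With mitochondrial reads limited to 5% the mural ratio turned, to -0.26 on the log2 scale from 0.30. Over 11 other settings the log2 ratio of Col1a2 in mural cells ran from -0.05 to 1.11 (0.44 here), and that of Col4a1 from -0.56 to 0.35 (0.19 here), so neither has a settled direction. Col4a1 in fenestrated endothelial cells had a ratio of 0.893 (95% interval 0.81 to 0.986), and the collagen share of the capillary class, the largest endothelial class, was 0.104% and 0.104%.

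**Figure D5:**
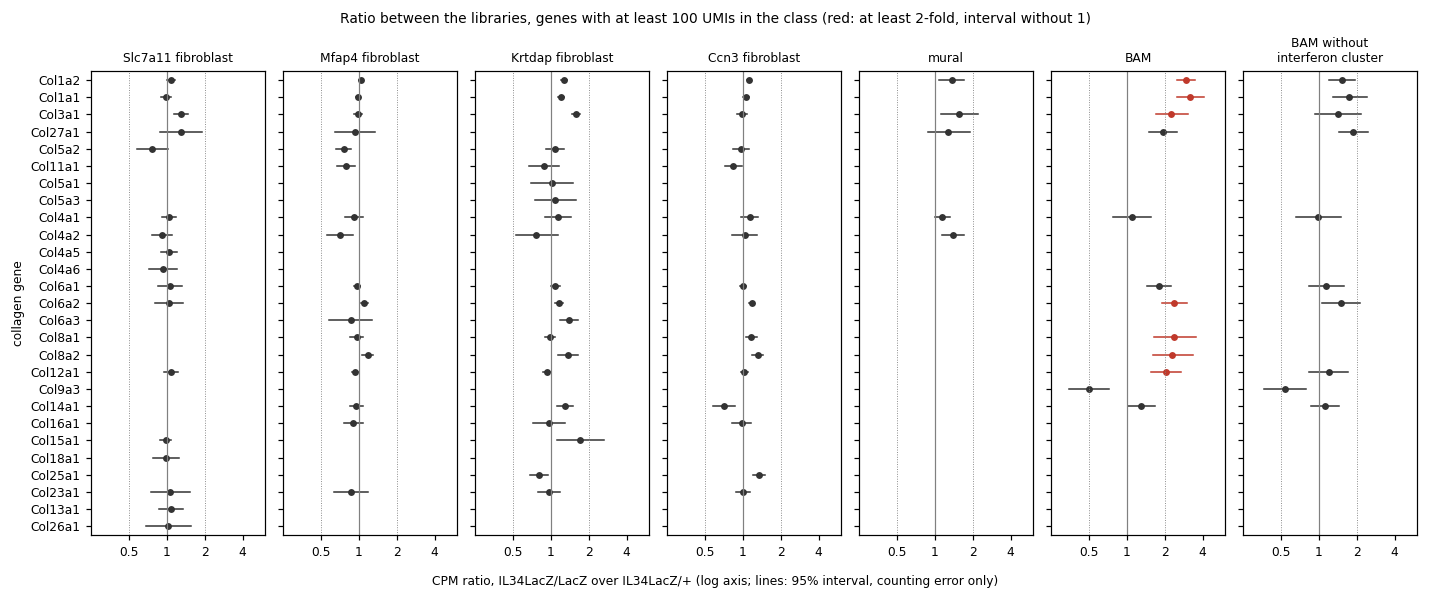
CPM ratio of the homozygous over the heterozygous library for each collagen gene with at least 100 UMIs in the class, on a log axis, with 95% intervals for counting error and dotted lines at 0.5 and 2. No gene of the 4 fibroblast subsets or mural cells passes 2-fold, 7 of 12 do in BAMs (red), and none of 10 does in BAMs without the interferon-led cluster.

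Over all 20 named classes, 148 pairs of a collagen gene and a class could be compared, and 10 were higher and 0 lower in the homozygous library by this rule. The share was 6.76%, against 0.698% of all 91975 pairs of a gene and a class (0.454% higher and 0.244% lower). Under other settings the count of higher pairs went from 0 to 28, and the share of all genes over the 20 classes is not given for those settings. Of the 10 pairs, 7 were in BAMs, where 1.31% of all genes were higher: Col1a1, Col1a2, Col3a1, Col6a2, Col8a1, Col8a2 and Col12a1. Col1a2 measured 22.7 and 67.1 CPM in BAMs, a ratio of 2.95 (95% interval 2.51 to 3.49), and Col1a1 10.3 and 32.6 CPM, a ratio of 3.17 (95% interval 2.49 to 4.07). The other 5 had ratios between 2.05 and 2.38. A single homozygous cell held 22.9% of the Col8a1 UMIs of BAMs, and without the cell richest in each gene, a setting chosen after seeing the data, Col8a1, Col3a1 and Col12a1 no longer passed, at ratios of 1.65 (1.1 to 2.5), 1.98 (1.48 to 2.69) and 1.92 (1.46 to 2.53). Under that setting 5 of the 10 pairs were left over all classes, 4 of them in BAMs. The median over the 12 collagen genes compared was 2.15, beside 1.03 for all genes.

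Most of the BAM difference lay in 1 cluster of BAMs led by interferon-response genes (Ifit1, Ifit3, Rsad2 and Cxcl10 among its 10 leading genes), with 149 and 112 cells. In this cluster Col1a2 measured 126 and 702 CPM and the collagen share was 0.0536% and 0.236%, against 0.012% and 0.0155% in the other BAMs. The fibroblast markers moved with it. They summed to 2539.5 and 9122 CPM in the cluster (8 and 10 of 12 seen, with Lum, Dpt, Igf2 and Fmod at 0 in the heterozygous and Dpt and Slc6a13 at 0 in the homozygous library), and to 296 and 379.9 CPM in the other BAMs (11 and 12 of 12 seen). BAM markers summed to 11071 and 6814 CPM in the cluster. The part of fibroblast RNA in the collagen values of BAMs was not tested. Without this cluster Col1a2 had a ratio of 1.53 (95% interval 1.21 to 1.95), none of 10 collagen genes in BAMs passed the rule (0.512% of all genes higher) at a median of 1.3, and 3 of the 10 pairs over all classes were left. These 3 were Col3a1 in neutrophils and Col6a1 and Col27a1 in choroid plexus epithelial cells. For Col3a1 in neutrophils, 12.9 and 29.8 CPM, 1 cell held 65.5% of the UMIs, and without it the ratio was 0.518 (0.263 to 1.03). In neutrophils 0.739% of all genes were higher. Of the 7 collagen genes compared there, 6 had intervals of the ratio above 1, where 8.33% of all genes had. With every cell counted, the ratio of the collagen share was 1.43 (1.28 to 1.61) in neutrophils and 1.29 (1.18 to 1.4) in BAMs without the cluster. It was 2.33 (1.51 to 3.75) in monocytes and 2.12 (1.24 to 3.85) in B-lineage cells, with 24 and 157 and 16 and 100 collagen UMIs. T and NK cells had 1.4 (1.08 to 1.83), microglia 1.09 (1.01 to 1.19) and erythroid cells 1.04 (0.895 to 1.21). Col6a1 and Col27a1 in choroid plexus epithelial cells measured 4.25 and 8.89 CPM and 4.18 and 8.48 CPM, where 0.170% of all genes were higher, and without the cell richest in Col6a1 its ratio was 1.97 (1.35 to 2.88).

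The genes that modify, process, bind and break down collagen were described from 4 lists, of 20 modifying enzymes and chaperones, 14 processing and crosslinking genes, 10 receptors and 11 breakdown genes. Over the 20 classes, 356 pairs of a gene and a class could be compared, of which 4 were higher and 1 lower in the homozygous library. Of all 91975 pairs, 0.454% were higher and 0.244% lower. Serpinh1, the collagen-specific chaperone of the endoplasmic reticulum, measured 786 and 804 CPM in the Slc7a11, 989 and 1101 CPM in the Mfap4, 768 and 1017 CPM in the Krtdap and 766 and 811 CPM in the Ccn3 subset, and 261 and 295 CPM in capillary endothelial cells. P4hb, a subunit of prolyl hydroxylase, measured 298 and 317 CPM in the Slc7a11 and 294 and 279.8 CPM in the Mfap4 subset. In the Krtdap subset Serpinh1 had a ratio of 1.32 (1.23 to 1.42) and Sparc, a collagen-binding matrix protein, one of 1.42 (1.36 to 1.48), neither past 2-fold. The median ratio there was 1.12 over the 16 modifying enzymes with enough UMIs and 1.2 over the 6 processing and crosslinking genes, and 0.937 over 6 receptors and 1.06 over 6 breakdown genes, beside 0.997 for all genes.

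Pcolce, which enhances the release of the procollagen tail and is also one of the fibroblast markers, was highest in the Slc7a11 subset at 854 and 864 CPM and measured 447 and 346 CPM in the Mfap4 subset. Among receptors, Itga1, the alpha chain of a collagen-binding integrin, measured 1909.7 and 2282 CPM in mural, 1092 and 947 CPM in fenestrated and 648 and 671 CPM in capillary endothelial cells, the classes with Col4a1 and Col4a2, while Ddr2, a receptor for fibrillar collagen, measured 240.4 and 266 CPM in the Mfap4 and 179 and 198 CPM in the Ccn3 subset. Lair1, an inhibitory collagen receptor of immune cells, measured 821 and 978 CPM in microglia and 164 and 201 CPM in BAMs. Of the breakdown genes, Timp3, an inhibitor of metalloproteinases, measured 3459.6 and 3438 CPM in fenestrated endothelial cells, and 2295 and 2433 CPM in the Slc7a11 and 201 and 196 CPM in the Ccn3 subset. Mmp14, a membrane metalloproteinase that cuts fibrillar collagen, measured 162 and 152 CPM in the Slc7a11 subset. The 4 higher pairs were all in BAMs, where 1.31% of all genes were higher: Serpinh1 at 17.4 and 44.2 CPM, Mrc2 (the collagen uptake receptor) at 8.02 and 18.8 CPM, Mmp14 at 7.42 and 15.9 CPM and Ctsk (a collagen-cutting cathepsin) at 2.39 and 8.39 CPM. Without the interferon-led cluster only Mmp14 passed the rule, at 7.38 and 15.2 CPM, where 0.512% of all genes were higher. Timp1 in neutrophils, 55.9 and 21.6 CPM, was the lower pair, in a class where 0.559% of all genes were lower. No gene of these lists passed the rule in a fibroblast, mural or endothelial class, where 0.147% to 1.91% of all genes did.

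High collagen values also stood in a cluster that was given no class name, because genes of pituitary, bone and nasal gland cells (Prl, Pomc, Bglap and Bpifa1 among them) led it together with the fibroblast marker Dcn. It held 119 and 160 cells, and its collagen share was 0.857% (0.834 to 0.88) and 0.342% (0.331 to 0.354), a ratio of 0.399 (95% interval 0.382 to 0.417). Of 16 genes with enough UMIs (median ratio 0.512, beside 0.992 for all genes), 8 were lower and 0 higher in the homozygous library, where 2.28% of all genes were lower: Col1a1, Col1a2, Col2a1, Col4a1, Col5a2, Col8a1, Col11a1 and Col11a2. Col11a1 measured 802 and 96.7 CPM and Col1a1 1903 and 505 CPM, and 1 cell held 52.6% of the Col11a1 UMIs. Without the cell richest in each gene, 4 of the 8 still passed: Col11a1 at a ratio of 0.305 (0.236 to 0.393), Col1a1, Col1a2 and Col11a2. The makeup of the cluster differed between the libraries: Prl measured 0 and 14905 CPM, Pomc 4.68 and 15357, Bglap (osteocalcin) 6211 and 516, and Ibsp (bone sialoprotein) 1669 and 242. A subcluster led by Bglap and Ibsp, with 19 and 32 cells, had a collagen share of 2.66% and 0.537%, Col1a1 at 7225 and 846 CPM and Col2a1 at 680.0 and 203 CPM, and 1 cell held 47.6% of these Col1a1 and 38.8% of these Col2a1 UMIs. The cluster also held the subcluster led by astrocyte genes, with Slc1a2 at 1269 and 1034 CPM over the whole cluster. The part of these bone and pituitary genes in the difference between the libraries was not tested.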

How the data were processed

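Single cells of 2 libraries, 1 per genotype, were measured with the Chromium Single Cell 3′ kit v3.1, per the labels. The deposited matrices hold whole-number UMI counts per gene and barcode; per the submitters' processing notes Cell Ranger 5.0.0, the builds GRCm38.p6 and mm10, and GENCODE M21 were used. Every barcode in them had at least 500 UMIs. Gene positions are those of GENCODE M21 on GRCm38, and promoter windows those of RefSeq on GRCm38.p6.

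Barcodes with under 1000 UMIs, under 500 genes or over 10% mitochondrial UMIs were left out. Scrublet, as in Scanpy 1.11.5, marked 6.44% of the heterozygous and 6.46% of the homozygous barcodes as doublets, which were removed. Cells were clustered without collagen genes (2000 variable genes, 30 components, 20 neighbours, Leiden resolution 1, leidenalg 0.10.2), which gave 29 clusters. A cluster was named where a fixed marker list averaged at least 1 log2 unit above the median cluster, with at least 3 markers raised, a lead of at least 1 over the other lists and as many or more genes among its 10 leading ones; 3 clusters stayed unnamed. These limits, and the list of genes of unlisted tissues that kept the Prl, Pomc and Bglap cluster unnamed, were set after seeing the data. The pericyte and smooth muscle split and the Bglap subcluster are finer clusterings of a single class.

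UMIs were summed per class and library. CPM carry exact Poisson intervals, shares Clopper-Pearson intervals and ratios exact conditional binomial intervals, all at 95%, from SciPy 1.17.1. No test between genotypes was run, and the calculation of calls was tested on simulated data. The collagen genes and gene lists were chosen with earlier results of these data known. By the rule for named genes, a class is described by those of its 12 highest collagen genes that had at least 100 UMIs, by every gene that met the rule for differing, and by the 3 highest genes of each processing list. Collagen genes outside that rule are named at the classes where they were highest or for comparison, chosen after their values were seen. Alternatives varied the UMI, mitochondrial, doublet, clustering, weighting, thinning and counting choices.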

Additional observations from a re-analysis of the deposited data

How the results depend on the processing

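The values reported were 10 higher and 0 lower collagen pairs, 4 higher and 1 lower pairs of processing genes, 39 genes with their highest class, and log2 ratios of the collagen share (homozygous over heterozygous) of 0.11 in fibroblasts, -0.11 in endothelial and 0.30 in mural cells. The endothelial value pools classes with ratios of 1.01, 0.977, 1.12 and 0.977 (capillary, arterial, venous and fenestrated), and the fenestrated class, the highest in collagen, had 213 and 143 cells. Over 11 alternatives, 22 to 39 of the 39 genes kept their highest class. With at least 2000 UMIs per cell, collagen pairs were 4 higher and the log2 share ratio was 0.0927 in fibroblasts, -0.17 in endothelial cells, 0.50 in mural cells. With at least 500 UMIs and 250 genes per cell, collagen pairs were 2 higher and 5 lower, processing pairs were 2 higher and 0 lower and the log2 share ratio was 0.0102 in fibroblasts. With mitochondrial reads limited to 5%, collagen pairs were 0 higher, processing pairs were 1 higher and 0 lower, 23 highest classes were kept and the log2 share ratio was 0.13 in fibroblasts, -0.19 in endothelial cells, -0.26 in mural cells. With a mitochondrial limit of 20%, collagen pairs were 1 higher and 1 lower, processing pairs were 1 higher and 2 lower and the log2 share ratio was 0.14 in fibroblasts, 0.44 in mural cells. With doublets kept, collagen pairs were 2 higher and the log2 share ratio was 0.0900 in fibroblasts, 0.14 in mural cells. At a Leiden resolution of 0.5, collagen pairs were 3 higher, processing pairs were 1 higher, 22 highest classes were kept and the log2 share ratio was 0.0922 in fibroblasts. At a Leiden resolution of 2, collagen pairs were 2 higher, processing pairs were 2 higher and the log2 share ratio was -0.0198 in fibroblasts. With collagen genes kept in the clustering, collagen pairs were 3 higher and processing pairs were 2 higher. With equal weight per cell, collagen pairs were 5 higher and the log2 share ratio was 0.15 in fibroblasts, 0.0832 in mural cells. With cells thinned to 2000 UMIs, collagen pairs were 4 higher and processing pairs were 1 higher and 0 lower. At a minimum of 20 UMIs per gene, collagen pairs were 28 higher and 9 lower and processing pairs were 25 higher and 8 lower. At a ratio of 1.5, collagen pairs were 22 higher and 2 lower and processing pairs were 18 higher and 3 lower. As a mean over clusters, the log2 share ratio was 0.0891 in fibroblasts, -0.0059 in endothelial cells. Without the interferon-led BAM cluster, an alternative chosen after seeing the data, collagen pairs were 3 higher and processing pairs were 1 higher. Without the cell richest in each gene, also chosen after seeing the data, collagen pairs were 5 higher. The cause of these moves was not tested. The share of all genes meeting the rule over the 20 classes is not given for these settings, so their counts cannot be set against a background. Of the 16 results recomputed, those on Col4a1 in fenestrated endothelial cells, Col27a1 in microglia and Col8a2 in ependymal cells moved by less than their counting interval under all 11 alternatives. At a mitochondrial limit of 5% the Mfap4, Krtdap and Ccn3 subsets were not formed, at a resolution of 0.5 the Slc7a11 and Mfap4 subsets, and at 500 UMIs the Ccn3 subset, so no value could be given for these. No paired analysis was possible because each genotype is 1 library. Intervals and floors cover counting error only, and genes under 100 UMIs in a class were not compared.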
